A study of Mus musculus with 3 samples.

Results

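The stromal cells of inguinal fat were read here as 1 population per library, to ask which genes differed from saline in the same direction after cold and after the β3-adrenergic agonist CL 316,243 (CL), and which differed in opposite directions. Stromal barcodes were those with at least 500 detected genes, at most 15% mitochondrial UMIs, at least 20 UMIs summed over Col1a1, Col1a2, Col3a1 and Dcn, and 0 UMIs of Ptprc, Pecam1 and Rgs5. UMIs (unique molecular identifiers) each mark 1 captured RNA molecule. The rule took 2469 of the 20667 barcodes in the series, 1088 of 7674 in the saline, 492 of 5050 in the cold and 889 of 7943 in the CL library. There were 10268 genes with at least 50 UMIs over the 3 stromal sums, and these were compared.

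All 3 groups were C57BL/6 mice, and the material was the stromal vascular fraction of inguinal fat, the cells that remain once adipocytes are removed. The groups were saline, 4 C for 3 days, and intraperitoneal CL 316,243 at 1 mg/kg for 3 days, with 1 library each. How many animals each library pooled, their age, any injection of the cold mice and the housing temperature of the controls are not stated in the labels. With 1 library per group no test was possible, and a difference between treatments cannot be told apart from a difference between animals, dissociations or libraries.

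Fat stroma holds the fibroblast-like progenitors that build the collagen matrix and give rise to new adipocytes, and it signals to immune cells and vessels through chemokines and growth factors. Cold reaches the tissue through sympathetic nerves that release noradrenaline, while CL acts on the β3 receptor, which in mice is found mainly on adipocytes. Effects on stromal cells can therefore come through adipocytes as well as directly. Both treatments are standard means of turning white inguinal fat beige.

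The 3 stromal sums held 6776229 saline, 3485749 cold and 5818026 CL UMIs, and the median barcode held 6350, 7291 and 6430. Levels are CPM, UMIs of a gene per 1000000 UMIs of the stromal sum, and ratios are log2 values with 95% exact intervals in parentheses. The intervals cover counting error only, and they understate the error of a gene whose UMIs sit in few cells. Stromal barcodes made up 17.3% (16.4 to 18.3) of the saline, 12.7% (11.7 to 13.8) of the cold and 13.3% (12.5 to 14.1) of the CL barcodes that passed the first 2 filters. The collagen threshold lay far below the bulk of cells: the medians were 199, 227.5 and 175 collagen and Dcn UMIs, only 1, 0 and 7 members had 20 to 24, and 2, 2 and 7 barcodes with 15 to 19 were left out. No stromal barcode was shared between libraries.

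The stromal label was checked against 9 identity markers, all of which were present in each library, with summed levels of 29082 CPM in saline, 39051 in cold and 21707 in CL. Most of that spread came from Gsn (gelsolin, an actin-binding protein), at 20500, 30290 and 11240 CPM. Markers of other cells were unequal between libraries: 9 myeloid markers summed to 69.5, 31.3 and 156 CPM, 8 pericyte and smooth muscle markers to 55.6, 72.0 and 143, 7 endothelial markers to 18.3, 24.7 and 29.2, and 6 T cell markers to 4.87, 2.58 and 0.859. The 7 B cell markers summed to 74.8, 45.6 and 47.3 CPM. The 4 lymph node stroma markers listed summed to 162, 163 and 483 CPM, nearly all from the chemokine Cxcl13 (1093, 563 and 2809 UMIs), with Madcam1 at 0 in each library. The 6 epithelial markers had 3, 0 and 1 UMIs. The 5 erythroid markers, whose RNA is free in such suspensions, summed to 1260, 1227 and 1383 CPM.

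A gene was called where both ratios to saline reached 1.5-fold. Of the 10268 genes, 289 were higher in both libraries (2.81%), 140 were lower in both (1.36%), 50 were higher in cold and lower in CL (0.487%) and 110 were lower in cold and higher in CL (1.07%). In single comparisons, 892 genes were higher (8.69%) and 609 lower (5.93%) in cold, and 1320 were higher (12.9%) and 757 lower (7.37%) in CL. The single-comparison counts of each gene list below are to be read against these shares. The median ratio of all tested genes was 0.07 in cold and 0.06 in CL, so the split between shared directions depended on the scaling: with a median-of-ratios scale in place of the UMI total it was 181 higher and 202 lower. Both intervals lay off 0 for 164 of the genes higher in both, 115 of those lower in both, and 30 and 65 of those called in opposite ways. The comparisons share the saline library, so a saline level that is high or low for any reason moves both ratios together. The scatter plot shows the 4 groups of genes as the corners of the cloud.

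**Figure D1:**
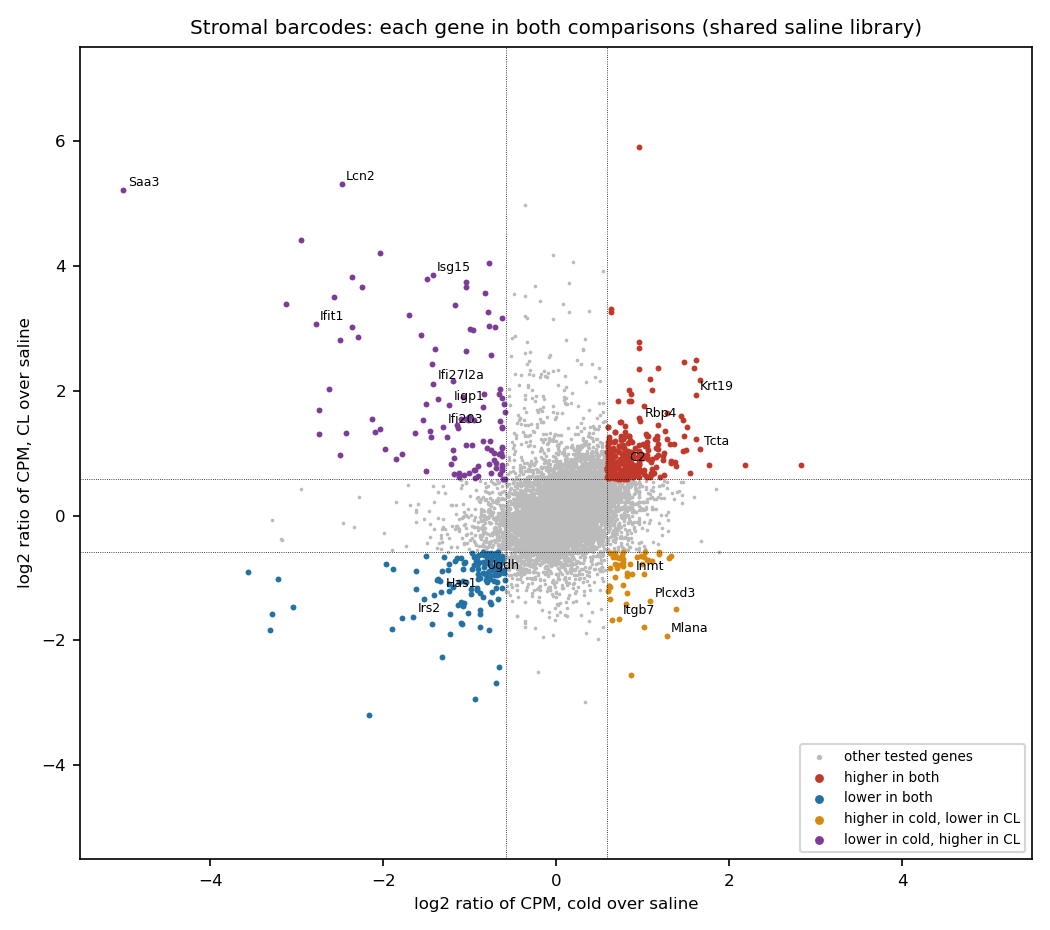
Each point is a gene tested in stromal barcodes, with its log2 ratio of CPM in cold over saline on the horizontal and in CL over saline on the vertical axis. Dotted lines mark 1.5-fold, colours mark the 4 groups of called genes, and some leading genes are labelled; 1 called gene with 0 cold UMIs (Oas2) is not drawn. The groups lie in the 4 corners, with 289 genes at the upper right, 140 at the lower left, 50 at the lower right and 110 at the upper left.

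The genes lower in both libraries were led by Irs2, Arc, Has1, Socs3 and Tfpi2. Irs2, the insulin receptor substrate that passes insulin and IGF signals on to PI3 kinase, stood at 199 CPM in saline (1350 UMIs), 63.4 in cold (221) and 65.0 in CL (378). The cold and CL levels were alike and far below saline, at -1.65 (-1.86 to -1.45) and -1.62 (-1.78 to -1.45), and CL over cold was 0.04 (-0.21 to 0.28). Has1 makes hyaluronan, the large sugar polymer of loose connective tissue, and Ugdh makes its precursor UDP-glucuronate. Has1 stood at 580 CPM in saline, 231 in cold and 249 in CL, with ratios of -1.33 (-1.44 to -1.22) and -1.22 (-1.31 to -1.13). Ugdh stood at 780.5, 434 and 412 CPM, with ratios of -0.85 (-0.93 to -0.76) and -0.92 (-0.99 to -0.85). The saline library was the highest for both genes, as follows from their choice as genes lower in both. Hyaluronan synthesis as a whole was not tested.

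The lower Has1 level went with fewer cells that had a Has1 UMI. With every barcode thinned to 3000 UMIs (77, 35 and 70 shallower stromal barcodes left out), 49.2% (46.0 to 52.3) of saline, 21.9% (18.2 to 26.0) of cold and 32.5% (29.3 to 35.8) of CL stromal barcodes held one. Without thinning the shares were 57.4%, 29.7% and 43.6%. Barcodes with a Ptprc UMI (the pan-leukocyte gene), thinned alike, held one in 1.78%, 0.587% and 1.13%. Their median depths before thinning were 2897, 3268 and 3782 UMIs, and 1891, 1078 and 1370 of them were too shallow to thin. The same thinned shares for Ugdh were 71.2%, 50.5% and 54.6% of stromal barcodes.

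The Has1 promoter is shown because the gene had the most UMIs among those at least 2-fold lower in both libraries and its window holds a match to the cyclic AMP response element, the site bound by CREB factors downstream of β-adrenergic signalling. The window covers 250 bases before to 50 after the start, chr17:17855139-17855438 on the minus strand (RefSeq, GRCm38.p6), printed 5′ to 3′ with the match (TGACGTCA, 83 bases before the start) in capitals.
Has1: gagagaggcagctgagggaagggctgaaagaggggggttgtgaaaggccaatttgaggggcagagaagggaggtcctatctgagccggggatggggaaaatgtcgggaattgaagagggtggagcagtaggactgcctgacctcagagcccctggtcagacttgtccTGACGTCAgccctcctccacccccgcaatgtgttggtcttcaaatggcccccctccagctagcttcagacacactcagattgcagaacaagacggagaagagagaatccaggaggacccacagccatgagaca
Of the 140 genes lower in both, 98 had a promoter in the RefSeq table, and 5 of these (5.10%) held TGACGTCA on either strand, against 3.39% of the 7911 promoters of tested genes. The AP-1 motif TGANTCA was in 11 of the 98 (11.2%), against 4.64% of tested genes and 7.93% of all 27025 promoters. No match in a window says only that these letters are not in it.

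Signalling brakes and immediate early genes, which cells switch on within minutes of many stimuli and which tissue dissociation is also known to induce, were among the rest. Socs3, the inhibitor of JAK-STAT signalling, stood at 663 CPM in saline, 336 in cold and 294 in CL, with ratios of -0.98 (-1.07 to -0.89) and -1.18 (-1.26 to -1.09). Arc, an activity-regulated gene, stood at 32.2, 8.61 and 9.11 CPM. Arc was at -1.90 (-2.50 to -1.35) and -1.82 (-2.28 to -1.38), but its cold level rested on 30 UMIs, of which 3 barcodes held 36.7%. Cdkn1a, the cell cycle inhibitor p21, stood at 312, 159 and 171 CPM. Gadd45a, another growth arrest gene, stood at 46.5, 21.8 and 13.9 CPM, the lowest in CL. Myc stood at 154, 86.6 and 87.5 CPM, with ratios of -0.83 and -0.82.

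Of 24 measured immediate early genes, 8 were lower and 0 higher in cold, 11 were lower and 1 higher in CL, and 5 were lower in both (Arc, Fosl2, Ier5, Myc and Socs3). That is 20.8% of the list, against 1.36% of all tested genes. The list's medians were -0.36 in cold and -0.54 in CL, against 0.07 and 0.06 over all genes. The best known members moved less: Fos stood at 2243 CPM in saline, 2934 in cold and 2244 in CL, and Egr1 at 2639, 2136 and 1847. Junb stood at 2119, 1589 and 1217 CPM, lower by 1.5-fold in CL alone.

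Of 16 heat shock genes, 4 were lower and 0 higher in cold, while 2 were lower and 2 higher in CL. The 2 lower in both (12.5% of the list, against 1.36% of all genes) were the co-chaperones Bag3 (230, 141 and 124 CPM) and Dnajb4 (72.2, 43.0 and 39.9). The heat shock medians were -0.24 and -0.12. Of 17 glucocorticoid- and metal-responsive genes, 9 were lower and 0 higher in cold, and 5 were lower and 2 higher in CL, with medians of -0.60 and -0.32. Cdkn1a and Zbtb16 were lower in both (11.8% against 1.36%), and Lcn2 was lower in cold and higher in CL (5.88% against 1.07%). The metallothioneins Mt1 and Mt2, which bind zinc, were lower in cold alone: Mt1 stood at 1644 CPM in saline, 660.1 in cold and 1231 in CL. Of 14 cAMP-responsive genes, 6 were lower and 0 higher in cold, 3 were lower and 0 higher in CL, and Irs2 and Fosl2 were lower in both (14.3% against 1.36%). The part of handling or dissociation in these lists and the immediate early genes was not tested.

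Growth factor and transcription factor genes were also among those lower in both. Bmp2, a bone morphogenetic protein, stood at 40.7 CPM in saline, 21.5 in cold and 17.9 in CL. Cebpb, an early factor of adipocyte differentiation, stood at 512, 325 and 294 CPM, with ratios of -0.65 (-0.75 to -0.56) and -0.80 (-0.88 to -0.71). Tfpi2, a secreted protease inhibitor of the matrix, stood at 44.1, 14.3 and 19.4 CPM. Ccnl1, Tiparp, Pprc1, Nfkbiz, Rhob and Ier5 completed the 15 leading genes, with cold ratios from -1.35 (Pprc1) to -0.78 (Nfkbiz) and CL ratios from -1.24 (Ier5) to -0.75 (Ccnl1).

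The same genes were read in barcodes with a Ptprc UMI and under 20 collagen and Dcn UMIs (3546 saline, 2414 cold and 4568 CL). Of the 15 leading genes, 14 had at least 50 UMIs there, and 0 were 1.5-fold lower in both libraries. By any amount, 5 of the 14 lay below saline in both. Socs3 stood at 68.2 CPM in saline, 55.4 in cold and 107 in CL in those barcodes, and Cdkn1a at 219, 181 and 434, so both were highest in CL. Irs2 stood at 111, 94.9 and 39.0 CPM, lower in CL alone. In barcodes with a Pecam1 UMI, the endothelial marker (924, 715 and 612), 13 of the 15 were measured. By any amount, 11 of the 13 lay below saline in both libraries. By 1.5-fold, 2 were lower in both, Irs2 (115, 69.6 and 40.1 CPM) and Myc (47.6, 23.5 and 11.4). These differences between cell populations were not tested.

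**Figure D2:**
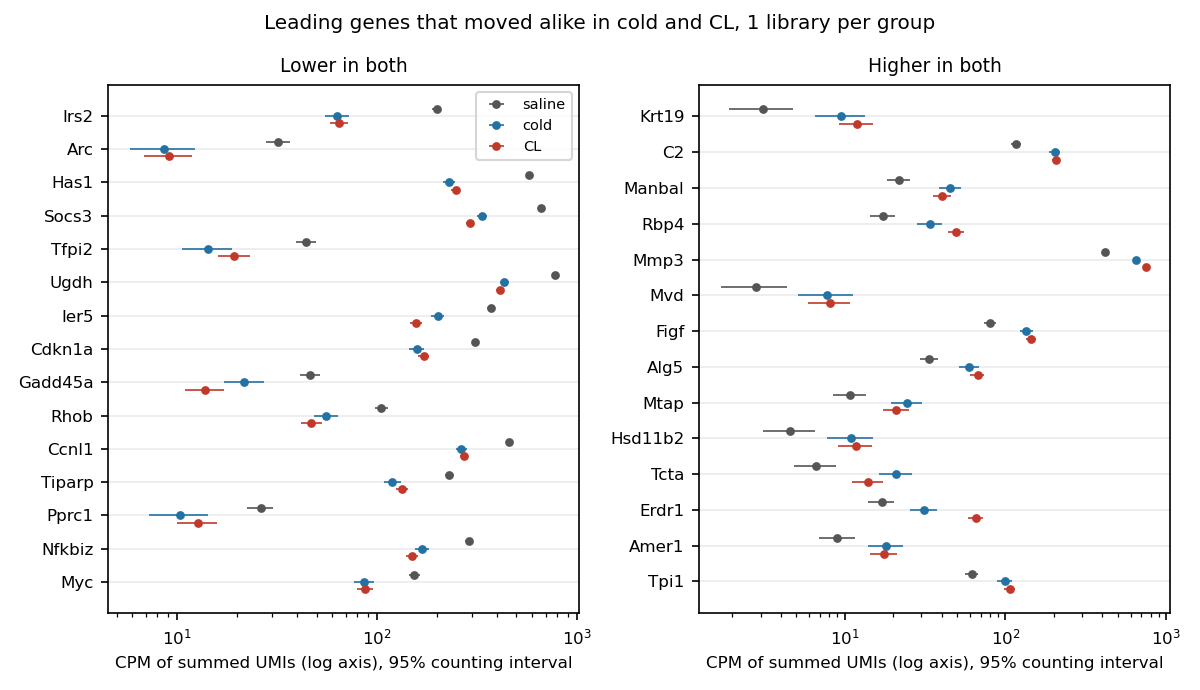
CPM of the 15 leading genes lower in both (left) and 14 of the 15 higher in both (right), on a log axis, with 1 point per library and 95% Poisson intervals of the count. By the selection, saline stands to the right of both treated libraries on the left panel and to their left on the right panel. Examples are Irs2 at 199 against 63.4 and 65.0 CPM and Mmp3 at 416 against 653 and 752.

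Among the genes higher in both libraries, Mmp3, the secreted protease stromelysin 1, was the most abundant leading gene, at 416 CPM in saline (2818 UMIs), 653 in cold (2275) and 752 in CL (4376). Its ratios were 0.65 (0.57 to 0.73) and 0.85 (0.79 to 0.92), and the cold ratio fell short of 1.5-fold, at 0.56, under the median-of-ratios scale. After thinning, 34.6% of saline, 38.5% of cold and 50.3% of CL stromal barcodes held an Mmp3 UMI (42.3%, 45.9% and 57.3% without thinning), against 2.12%, 0.881% and 1.55% of Ptprc barcodes. The Mmp3 promoter is shown for its match to the AP-1 site, a known control element of this gene family: chr9:7445572-7445871 on the plus strand (RefSeq, GRCm38.p6), with TGAGTCA, 46 bases before the start, in capitals.
Mmp3: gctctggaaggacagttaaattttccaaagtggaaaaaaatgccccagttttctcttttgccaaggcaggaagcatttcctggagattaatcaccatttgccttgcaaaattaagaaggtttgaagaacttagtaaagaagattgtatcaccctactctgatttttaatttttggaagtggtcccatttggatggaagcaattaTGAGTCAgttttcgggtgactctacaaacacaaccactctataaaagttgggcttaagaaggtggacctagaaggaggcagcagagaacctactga
The AP-1 motif TGANTCA was in 9 of 222 promoters of genes higher in both (4.05%), near the 4.64% of tested genes.

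C2, the complement protease that joins C4 to form the C3 convertase, stood at 117 CPM in saline, 202 in cold and 205 in CL. Its ratios were 0.79 (0.64 to 0.94) and 0.81 (0.68 to 0.94), and the CL ratio was 0.54 when 3 sets of stromal barcodes were weighted equally. C2 lies beside Cfb on chromosome 17, at 34862604 to 34898265, and reads that could belong to either gene may be misplaced. After thinning, 17.9% of saline, 26.7% of cold and 37.9% of CL stromal barcodes held a C2 UMI (27.5%, 38.2% and 54.7% without thinning), against 1.95%, 1.03% and 1.92% of Ptprc barcodes. Figf, the vessel and lymphatic growth factor VEGF-D, stood at 80.6, 135 and 145 CPM, with ratios of 0.75 (0.56 to 0.93) and 0.84 (0.69 to 1.00). Cxcl12, the chemokine that holds CXCR4-bearing cells in tissue, stood at 200.4, 316.1 and 314 CPM, with ratios of 0.66 (0.54 to 0.77) and 0.65 (0.55 to 0.75). For C2, Figf and Cxcl12 the levels in the cold and CL libraries lay within 10 CPM of each other. Within the 3 sets (interstitial, committed, and Gdf10 and F3, described below), the cold ratios of C2 were 0.24, 0.30 and 0.69. Those of Cxcl12 were 0.33, 0.41 and 0.57, each short of 1.5-fold, and its CL ratios were 1.95, 0.59 and 0.25. The part of the mix of sets in the ratios of the whole stromal sum was not tested. Cxcl12 stood at 373, 604 and 835 CPM in Pecam1 barcodes with under 20 collagen and Dcn UMIs, above its stromal level in each library. The part of RNA from those endothelial barcodes was not tested either.

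Rbp4, the retinol carrier secreted by fat, stood at 17.3 CPM in saline, 33.9 in cold and 49.3 in CL, with ratios of 0.97 (0.59 to 1.35) and 1.51 (1.20 to 1.84). Its cold ratio was lower within each set described below, at -0.20 (interstitial), 0.79 (committed) and 0.86 (Gdf10 and F3). The Gdf10 and F3 set held 76 saline and 92 cold Rbp4 UMIs. Pparg, the master factor of adipocyte differentiation, stood at 12.1 CPM in saline and 22.1 in cold, with ratios of 0.87 (0.40 to 1.33) in cold and 0.67 (0.25 to 1.10) in CL. In Pecam1 barcodes Pparg stood at 53.7, 60.4 and 71.3 CPM, and the part of RNA from those barcodes was not tested. Of 21 adipogenic and lipid genes, 6 were higher and 2 lower in cold, 6 were higher and 3 lower in CL, and Rbp4 and Pparg were higher in both (9.52% of the list, against 2.81% of all genes). Mature adipocyte markers were near 0, at 1.48, 2.01 and 4.30 CPM over 6 genes.

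Krt19, a keratin, ranked first by its interval bounds, at 3.10 CPM in saline (21 UMIs), 9.47 in cold (33) and 11.9 in CL (69). Its UMIs came from 16, 20 and 52 barcodes. Krt19 is also a mesothelial marker. Of the other mesothelial markers, Msln had 0, 0 and 2 UMIs, Upk3b 2, 1 and 3, Lrrn4 4, 4 and 0, and Wt1 0 in each library. The source of the Krt19 UMIs was not tested. Hsd11b2, which inactivates glucocorticoids, stood at 4.58, 10.9 and 11.7 CPM, and its cold ratio of 1.25 was 0.24 in barcodes with at most 5% mitochondrial UMIs.

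Rbm3, an RNA-binding protein induced by mild cooling, was higher in both libraries, at 238 CPM in saline, 389 in cold and 416 in CL, with ratios of 0.71 (0.61 to 0.82) and 0.81 (0.72 to 0.90). Its relative Cirbp was higher in cold alone, at 26.3, 72.0 and 30.2 CPM, with ratios of 1.46 (1.17 to 1.74) and 0.20 (-0.11 to 0.51). The mice given CL were not labelled as cooled. In Ptprc barcodes Rbm3 stood at 527, 891 and 624 CPM, at 0.76 and 0.25.

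Metabolic genes higher in both came from several lists. Mvd and Msmo1, enzymes of cholesterol synthesis, stood at 2.80, 7.75 and 8.08 CPM and at 9.74, 18.6 and 16.2 CPM. Of 26 cholesterol and fatty acid genes, 5 were higher and 1 lower in cold, 8 were higher and 0 lower in CL, and these 2 were higher in both (7.69% of the list against 2.81% of all genes). The cholesterol list's medians were 0.21 and 0.28. Tpi1, a glycolytic enzyme, stood at 61.7, 99.0 and 106 CPM. It was the sole member higher in both of 20 glycolysis and hypoxia genes (5% against 2.81%). Mtap, which salvages methionine, stood at 10.8, 24.4 and 20.97 CPM.

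Of 27 endoplasmic reticulum and integrated stress genes, 4 were higher and 0 lower in cold, 13 were higher and 2 lower in CL, and 3 were higher in both (11.1% of the list, against 2.81% of all genes). The 3 were Phgdh, the first enzyme of serine synthesis, and the secretory-pathway genes Sdf2l1 and Creld2. Sdf2l1 stood at 20.7 CPM in saline, 32.7 in cold and 46.6 in CL. The list's medians were 0.21 and 0.56, so it was higher in CL than in cold on this measure. The abundant chaperone Hspa5 stood at 983, 919 and 1116 CPM, under 1.5-fold in both. Of 90 nuclear genes of oxidative phosphorylation, 6 were higher and 1 lower in cold, and 25 were higher and 1 lower in CL. Over all tested genes, 8.69% were higher and 5.93% lower in cold, and 12.9% higher and 7.37% lower in CL. Ndufa9, Ndufs8, Ndufaf5 and Atp5s were higher in both (4.44% of the list against 2.81% of all genes). Ndufa9 stood at 34.5, 53.9 and 57.8 CPM. The ratios of Atp5s and, in cold, Ndufaf5 had intervals that reached 0.

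Cell cycle genes were higher mainly in CL. Over all tested genes, 12.9% were higher in CL, and 8.69% were higher and 5.93% lower in cold. Of 14 S-phase genes, 10 were higher in CL and 3 in cold, with medians of 1.15 and -0.05. Gins2, Dut and Fen1 were higher in both (21.4% of the list, against 2.81% of all genes). Gins2 UMIs lay in 17 saline and 14 cold barcodes, of which 3 held 35.3% of the cold UMIs, and Fen1 UMIs in 20 and 17. After thinning, Gins2 was in 1.09% of saline and 0.66% of cold barcodes. The same shares were 0.69% and 1.09% for Fen1 and 5.9% and 9.6% for Dut. Of 13 G2/M genes, 13 were higher in CL, while in cold 4 were higher and 3 lower. So 4 were higher in both (30.8% of the list against 2.81% of all genes). The other 3 were lower in cold and higher in CL (23.1% against 1.07%). The CL calls rested on few barcodes: the CL UMIs of Birc5, Cdc20, Cenpf, Top2a and Ube2c lay in 18 to 32 of 889 barcodes, and 3 barcodes held 37.7% to 51.5% of them. The cold calls of G2/M genes rested on few molecules: Cenpf had 9 saline, 9 cold and 53 CL UMIs and Tpx2 13, 11 and 40, and both turned below 0 in cold, to -0.44, in barcodes with at most 5% mitochondrial UMIs. Top2a had 44, 15 and 119 UMIs and was called lower in cold. At these counts no direction of G2/M genes in cold was detectable.

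Further leading genes higher in both were Alg5 (an enzyme of protein glycosylation, 33.5, 59.4 and 67.0 CPM), Manbal (21.7, 45.3 and 40.6), Tcta (6.64, 20.9 and 13.9), Amer1 (a Wnt pathway regulator, 9.002, 18.1 and 17.5) and Erdr1 (17.0, 31.0 and 65.1). Erdr1 lies in a repeated region and its count is uncertain. It was the only one of the 15 also 1.5-fold higher in both libraries in Ptprc barcodes (29.9, 72.3 and 56.3 CPM) and in Pecam1 barcodes (28.5, 74.2 and 68.7). There, 11 and 9 of the 15 were measured, and 6 and 6 of these lay above saline in both libraries by any amount.

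The genes lower in cold and higher in CL were led by interferon-induced and acute-phase genes. Ifit1, an interferon-induced protein that binds foreign RNA, stood at 41.3 CPM in saline (280 UMIs), 6.03 in cold (21) and 345 in CL (2005). Its ratios were -2.78 (-3.49 to -2.14) and 3.06 (2.88 to 3.25). Isg15, a ubiquitin-like modifier, stood at 59.3, 22.1 and 853 CPM, with ratios of -1.43 (-1.80 to -1.07) and 3.85 (3.70 to 4.00). Irf7, which amplifies interferon production, stood at 89.7, 18.4 and 649 CPM. By the selection, saline lay between the treated libraries for each of these genes.

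Promoters of Ifit1 and Isg15 are shown because they carry repeated matches to the interferon-stimulated response element, the site bound by the STAT and IRF factors, searched on either strand as TTTC, any 2 bases and TTTC. Ifit1 is at chr19:34640639-34640938 on the plus strand, with matches 104 and 85 bases before the start. Isg15 is at chr4:156200769-156201068 on the minus strand, with 3 overlapping matches on the other strand that begin 78, 72 and 66 bases before the start. Both are from RefSeq (GRCm38.p6), with the matches in capitals.
Ifit1: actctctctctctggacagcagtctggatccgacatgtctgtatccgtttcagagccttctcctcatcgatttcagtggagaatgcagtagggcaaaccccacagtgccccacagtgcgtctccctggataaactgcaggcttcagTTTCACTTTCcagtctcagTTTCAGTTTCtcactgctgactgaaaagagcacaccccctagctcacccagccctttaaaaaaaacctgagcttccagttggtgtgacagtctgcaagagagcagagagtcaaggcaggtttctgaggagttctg
Isg15: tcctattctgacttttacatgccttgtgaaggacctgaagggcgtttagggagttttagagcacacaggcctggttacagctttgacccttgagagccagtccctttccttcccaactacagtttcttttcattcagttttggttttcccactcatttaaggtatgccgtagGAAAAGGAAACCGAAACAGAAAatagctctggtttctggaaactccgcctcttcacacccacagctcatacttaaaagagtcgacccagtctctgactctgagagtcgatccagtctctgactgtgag
Of the 110 genes lower in cold and higher in CL, 86 had a promoter in the table and 17 of these (19.8%) held this motif, against 3.11% of tested genes and 3.49% of all promoters. In the other 3 groups of called genes the share was 2.70% (higher in both), 2.04% (lower in both) and 2.63% (higher in cold, lower in CL). TGANTCA was in 16 of the 86 (18.6%) and the NF-kappaB motif searched (GGG, any 2 bases and TTTCC) in 6 (6.98%, against 1.66% of tested genes).

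Of 33 measured interferon response genes, 33 were higher in CL and 14 were lower in cold, so 14 (42.4%) moved in opposite ways, against 1.07% of all genes. Their medians were -0.41 in cold and 2.49 in CL, and 0 of the 33 was higher in cold. These 14 include Bst2 (162, 94.96 and 1321 CPM), Rsad2 (5.90, 1.43 and 108) and Irgm1 (39.9, 16.6 and 94.7). Ifit3 (24.2, 8.61 and 336 CPM) and Ifit3b are near copies, and their counts are uncertain. In Ptprc barcodes Isg15 stood at 89.6, 41.4 and 1023 CPM, and 6 of the 10 leading genes of this group were called there in the same opposite ways. In Pecam1 barcodes 4 of 10 were.

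Chemokines and acute-phase genes followed. Saa3, an acute-phase apolipoprotein, stood at 55.2 CPM in saline, 1.72 in cold (6 UMIs, all in 1 barcode) and 2040 in CL. Lcn2, an iron-scavenging defence protein, stood at 9.59, 1.72 and 379 CPM. Cxcl10, which draws T cells, stood at 208, 97.0 and 608 CPM, and 3 barcodes held 41.7% of its cold UMIs. Of 24 stromal chemokines and cytokines, 13 were higher and 1 lower in CL, while 1 was higher and 5 lower in cold. Over all tested genes, 12.9% were higher and 7.37% lower in CL, and 8.69% higher and 5.93% lower in cold. The chemokine genes called in opposite ways were Ccl7 (295, 130 and 560 CPM), Cxcl2, Ccl9 and Cxcl10 (16.7% of the list, against 1.07% of all genes). In cold Ccl7 was at 0.09 in the interstitial set described below, and at -1.98 in the committed and -2.34 in the Gdf10 and F3 set. Ccl9 rested on 24 saline, 6 cold and 60 CL UMIs, and its cold ratio was 0.19 with barcodes weighted equally. Cfb, of the alternative complement pathway, stood at 25.1, 14.9 and 150 CPM.

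A Lcn2 or Saa3 UMI was present in 59 of 1088 saline, 6 of 492 cold and 491 of 889 CL stromal barcodes. In the barcodes left without them, a choice that uses 2 of the called genes, 53 genes in place of 110 were lower in cold and higher in CL, of which 42 were among the 110. Ifit1 was then at 2.71 and Isg15 at 3.33 in CL. Myeloid markers moved with this group of genes, at 69.5, 31.3 and 156 CPM summed over 9 markers. Neutrophil markers summed to 0.885, 0.574 and 11.3 CPM over 5 genes. Of the 110 genes, 55 fell outside the ranking of leading genes, because they were more than 2 times as abundant in Ptprc or Pecam1 barcodes or belonged to a class left out of naming. Ccl9 and Cxcl2, given above as list members, are among these 55, with up to 935 and 2055 CPM in Ptprc barcodes. The part of RNA from those cells was not tested.

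**Figure D3:**
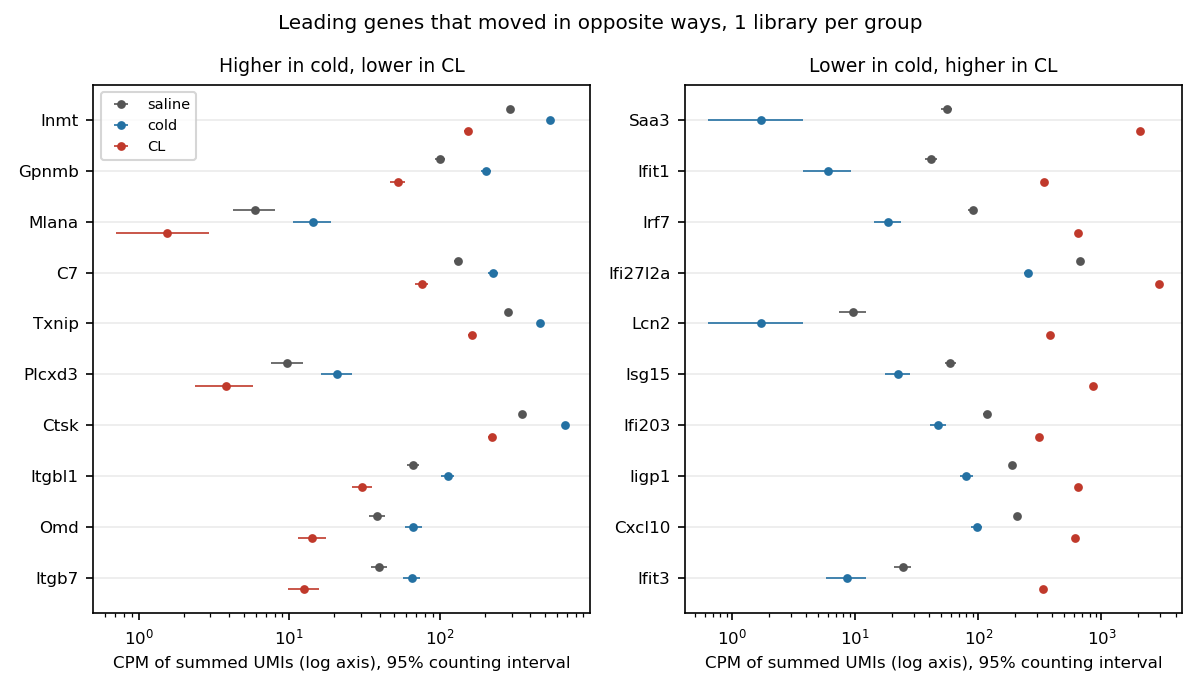
CPM of the 10 leading genes higher in cold and lower in CL (left) and the 10 lower in cold and higher in CL (right), on a log axis, with 1 point per library and 95% Poisson intervals of the count. By the selection, saline lies between cold and CL for all 20 genes. Examples are Inmt at 294 between 540 and 154 CPM and Ifit1 at 41.3 between 6.03 and 345.

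The genes higher in cold and lower in CL were led by Inmt, Gpnmb, Mlana, C7 and Txnip. Inmt, an amine methyltransferase, stood at 294 CPM in saline (1995 UMIs), 540 in cold (1883) and 154 in CL (897), with ratios of 0.88 (0.78 to 0.97) and -0.93 (-1.05 to -0.82). Ctsk, the collagen-degrading protease cathepsin K, stood at 354, 678 and 223 CPM, with ratios of 0.94 (0.85 to 1.02) and -0.67 (-0.77 to -0.57). Gpnmb, a glycoprotein of lysosomes and the cell surface, stood at 101, 204 and 52.6 CPM. C7, a late complement component, stood at 132, 226 and 75.8 CPM, and Txnip, a brake on glucose uptake, at 283, 466 and 164.5. After thinning, 35.6% of saline, 46.4% of cold and 20.6% of CL stromal barcodes held an Inmt UMI (47.4%, 58.5% and 30.6% without thinning), against 1.61%, 0.955% and 0.792% of Ptprc barcodes.

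Lcn2 and Saa3 are themselves called genes, and leaving out barcodes that hold them removes 491 of 889 CL but 6 of 492 cold barcodes, so the values that follow are a description of the barcodes left. In those the CL ratio was -0.56 for Inmt, -0.39 for Ctsk, -0.51 for Gpnmb, -0.35 for C7, -0.55 for Txnip and -0.45 for Plcxd3, all short of 1.5-fold. Omd (38.2, 66.8 and 14.3 CPM) and Itgb7 (39.4, 65.1 and 12.6) stayed past it, at -0.96 and -1.20.

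Several list members were also called higher in cold and lower in CL. Igfbp3, which binds insulin-like growth factors, stood at 59.2, 146 and 37.0 CPM, with ratios of 1.31 and -0.68, both with intervals off 0. Tgfbi, a matrix protein induced by TGF-β, stood at 143, 217 and 62.0 CPM. Its cold ratio was 0.71 in the interstitial, -0.11 in the committed and 0.52 in the Gdf10 and F3 set described below. Of 30 BMP and TGF-β genes, 7 were higher and 2 lower in cold, 2 were higher and 8 lower in CL, and the medians were 0.12 and -0.39. Of these 30, Tgfbi alone (3.33%) was higher in cold and lower in CL, against 0.487% of all genes. Fstl3, an inhibitor of activins, and Vwc2 were higher in both (6.67% of the list, against 2.81% of all genes), Fstl3 at 3.10, 6.88 and 6.53 CPM. Lamc3, a laminin chain of basement membranes, stood at 11.1, 20.1 and 1.89 CPM. Dbp, a clock output gene, stood at 31.7, 68.6 and 19.2 CPM, and its CL ratio was 0.045 without the barcodes with a Lcn2 or Saa3 UMI. Per2 was lower in both from 54, 15 and 30 UMIs, and the labels do not state the hour of collection.

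The selecting genes, which give no independent result, stood at 6285, 5640 and 4857 CPM for Col1a1 and 11595, 14055 and 8953 for Dcn. Of 19 other collagen genes, 0 were higher and 1 lower in cold, 1 was higher and 3 lower in CL, and 0 were called in both. The collagen medians were -0.06 in cold and -0.32 in CL, with 12 and 15 of the 19 below 0. Of 43 matrix glycoproteins and proteoglycans, 2 were higher and 6 lower in cold, while 4 were higher and 15 lower in CL, with medians of 0.03 and -0.31 and with 19 and 32 of the 43 below 0. Mfap4 (24.1, 15.2 and 4.47 CPM) and Matn2 (16.4, 10.6 and 9.97) were called lower in both (4.65% of the list, against 1.36% of all genes). The Matn2 ratio was above 0 in cold under 2 alternatives (0.11 and 0.44) and in CL under 1 (0.19), and 3 barcodes held 46.6%, 71.7% and 50% of the Mfap4 UMIs. Fn1, fibronectin, stood at 3190 CPM in saline, 2750 in cold and 1646 in CL. Vcan, the proteoglycan that binds hyaluronan, stood at 262, 155 and 422 CPM and was lower in cold and higher in CL.

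Of 40 matrix proteases, cross-linkers and inhibitors, 5 were higher and 3 lower in cold, and 5 were higher and 6 lower in CL. Mmp3 alone was higher in both (2.5% of the list, near the 2.81% of all genes). For the lists here and in the next paragraph, the shares over all tested genes were 8.69% higher and 5.93% lower in cold. In CL they were 12.9% higher and 7.37% lower. Timp2, a metalloproteinase inhibitor, stood at 2598 CPM in saline, 3261 in cold and 1472 in CL, lower by 1.5-fold in CL alone. Of 32 growth factors and receptors, 5 were higher and 5 lower in cold, and 3 were higher and 5 lower in CL. Figf and the lymphatic growth factor Vegfc were higher in both (6.25% of the list, against 2.81% of all genes). Vegfc had 21, 24 and 31 UMIs, and its CL interval reached below 0 (-0.06 to 1.65). Angptl4, an inhibitor of lipoprotein lipase, stood at 182, 104 and 249 CPM, at -0.81 in cold and 0.45 in CL. Of 22 Wnt genes, 2 were higher and 2 lower in cold, and 1 was higher and 4 lower in CL. Wnt5b was called higher in cold and lower in CL (4.55% of the list, against 0.487% of all genes), at 10.8, 18.9 and 5.5 CPM.

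Insulin-like growth factor genes were lower mainly in CL. Of 12 measured, 1 was higher and 1 lower in cold, and 0 were higher and 5 lower in CL, with medians of 0.08 and -0.46. Igfbp5 stood at 2933 CPM in saline, 2578 in cold and 1288 in CL. Of 18 clock genes, 3 were higher and 5 lower in cold, and 0 were higher and 6 lower in CL. Bhlhe40, a clock repressor, stood at 79.8, 31.3 and 59.1 CPM. Of 6 measured thermogenic genes, 1 was higher and 1 lower in cold, and 2 were higher and 1 lower in CL. Cox8b, a subunit typical of brown fat, had 28, 29 and 7 UMIs, and Tmem26, a surface marker of beige cells, stood at 10.3, 14.3 and 30.4 CPM. Ebf2, a factor of the beige lineage, stood at 286, 224 and 216 CPM, under 1.5-fold in both.

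**Figure D4:**
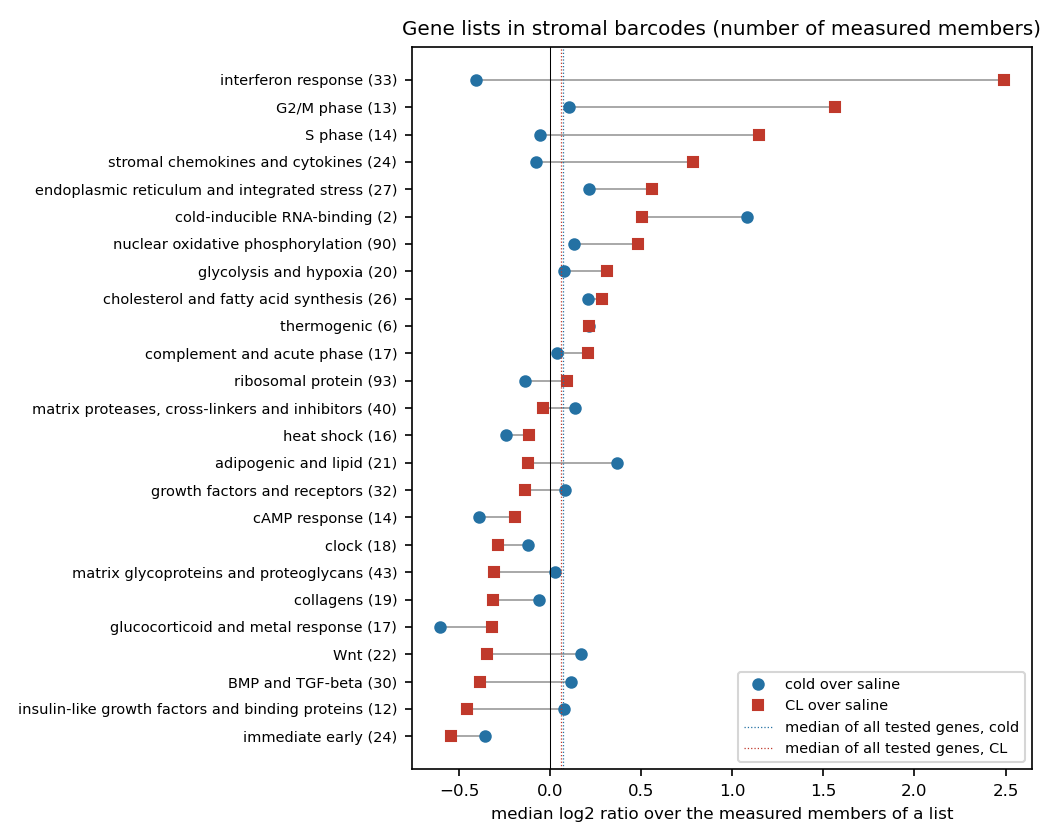
Median log2 ratio over the measured members of each gene list, for cold over saline (circles) and CL over saline (squares), with the number of members in brackets and dotted lines at the medians of all tested genes (0.07 and 0.06). The interferon list is the farthest apart, at -0.41 and 2.49, and the immediate early list lies below 0 in both, at -0.36 and -0.54.

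The leading genes were read within 3 sets of stromal barcodes, each barcode going to the highest of 3 marker scores (interstitial progenitor, with Pi16 and Dpp4; committed preadipocyte, with Icam1 and Fabp4; and stromal cells with Gdf10 and F3). These sets are ranges of a score, not cell types. The interstitial set took 56.6% of saline, 51.0% of cold and 58.3% of CL stromal barcodes, the committed set 26.3%, 25.8% and 23.6%, and the Gdf10 and F3 set 17.1%, 23.2% and 18.1%. The leading genes were chosen from the sum of these same barcodes, so agreement in sign between sets follows largely from that choice. Of the 15 leading genes lower in both, 15 lay below saline in cold in each set, and 14, 15 and 15 did so in CL. The exception was Arc in the CL interstitial set, from 4 saline and 11 CL UMIs. In the Gdf10 and F3 set Arc was level in CL, from 13 and 12 UMIs. Arc came mainly from the committed set, with 201 of its 218 saline UMIs.

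Sizes differed between sets. Has1 was lower in cold by -0.94 in the interstitial set, -2.75 in the committed set and -3.29 in the Gdf10 and F3 set, and in CL by -1.28, -1.37 and -0.89. The interstitial set held 3020 of the 3930 saline Has1 UMIs. Irs2 was lower in all 3 sets and both comparisons, at -1.34, -2.09 and -1.79 in cold and -1.66, -1.53 and -1.59 in CL. Of the 15 leading genes higher in both, 13, 15 and 13 lay above saline in cold and 15 in CL in each set. The exceptions were Rbp4 in the interstitial set, at -0.20 from 22 saline and 9 cold UMIs, and Krt19 and Hsd11b2 in sets where cold had 0 UMIs. C2 in CL was at 2.24 in the interstitial set but at 0.87 and 0.22 in the other sets. Inmt in cold was at 1.04 in the interstitial, -0.004 in the committed and 0.92 in the Gdf10 and F3 set. No test of these differences was possible.

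**Figure D5:**
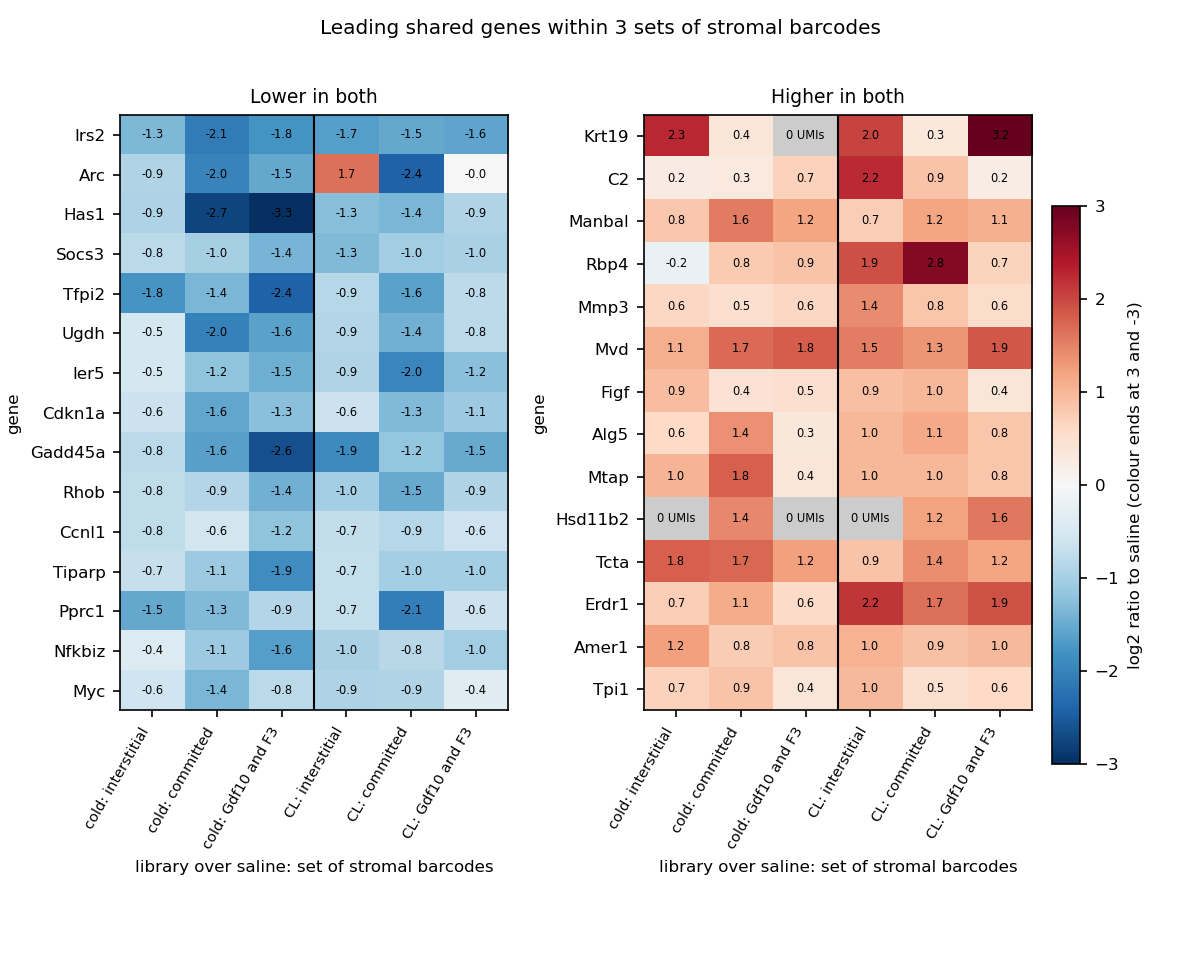
Log2 ratios to saline of the 15 leading genes lower in both (left) and 14 of the 15 higher in both (right), in cold and in CL within 3 sets of stromal barcodes, as colour and number. Grey fields had 0 UMIs in a library. Has1 in cold runs from -0.94 in the interstitial set to -3.29 in the Gdf10 and F3 set, and Irs2 lies between -2.09 and -1.34 in every field.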

How the data were processed

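Single-cell RNA libraries (10x Chromium 3' v3) of the inguinal stromal vascular fraction, 1 per group, were read from the deposited matrices of raw UMI counts. Per the file headers they were made with Cell Ranger 3.0.2, and per the labels the build is mm10. Gene coordinates are from GENCODE M21, matched by ID for 10260 of the 10268 tested genes. Each library's groups come from the labels.

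Counts were summed over stromal barcodes per library with Python 3.11.15, numpy 2.4.6 and scipy 1.17.1 and scaled to CPM. CPM have exact Poisson intervals and ratios exact conditional binomial intervals (95%). Only the intervals of cold over saline were checked, on simulated counts with counting error alone. That check cannot show how the intervals do where UMIs vary between cells. Libraries with 0 UMIs took a floor of 3 counts as a bound. Doublets and free RNA were not removed, beyond the 3 genes required at 0. No test was run. The members and lists were chosen with earlier results of these data known.

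The text names 15 genes in each shared and 10 in each opposite direction, ranked by the smaller interval bound. They exclude selecting, ribosomal, haemoglobin, antigen receptor, sex-linked and predicted genes, and genes whose highest stromal CPM was under 0.5 of that in Ptprc or Pecam1 barcodes. Up to 4 members per list with most UMIs, and all list members called in both, were added, and the text gives a selection. Of the 15 genes leading those higher in both, 1 is not reported here. Oas2 and the mesothelial and selecting genes fall outside this rule and were named after their values were seen. Y-linked genes were detected in all 3 libraries. Alternatives changed the scaling, filters, thresholds and weighting.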

Additional observations from a re-analysis of the deposited data

Results flagged for a closer look

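A few genes differed from saline in opposite ways in different sets of stromal barcodes, with counting intervals that lay off 0 on both sides. None of these differences was tested, and with 1 library per group none can be. Ccl2, a monocyte chemokine, was at 0.90 in cold over saline in the interstitial set and at -1.35 in the Gdf10 and F3 set (614 saline and 538 cold UMIs, and 233 and 61). Gbp3, an interferon-induced GTPase, was at 0.89 in cold in the committed set and -1.12 in the interstitial set (24 saline and 23 cold UMIs, and 107 and 23). Scd2, a fatty acid desaturase, was at 0.72 in cold in the committed set and -0.74 in the Gdf10 and F3 set. In CL over saline, Dkk2, a Wnt antagonist, was at 0.64 in the interstitial set and -0.60 in the Gdf10 and F3 set. Sfrp4, another Wnt antagonist, was at 2.71 in CL in the committed set, from 21 saline and 110 CL UMIs, and at -0.74 in the interstitial set.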

How the results depend on the processing

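The counts of called genes moved with the thresholds. Of genes higher in both libraries (289), 181 were called with a median-of-ratios scale, 487 with at least 20 UMIs, 99 with at least 200 UMIs, 38 at 2-fold and 164 with both intervals off 0. Of genes lower in both (140), 258 were called with at least 20 UMIs, 65 with at least 200 and 32 at 2-fold. The genes higher in cold and lower in CL (50) became 91, 17, 4 and 30 with at least 20 UMIs, at least 200 UMIs, 2-fold and both intervals off 0, and those lower in cold and higher in CL (110) became 203, 52, 50 and 65. Without barcodes with a Lcn2 or Saa3 UMI the last count was 53. Fewer genes, or a stricter rule, follow from the construction of most of these settings, and for the rest the cause was not tested.

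Among named genes, 7 ratios changed sign. Ccl9 in cold was 0.19 and Matn2 in cold 0.11 with barcodes weighted equally, and Matn2 in cold was 0.44 with 7 more markers required at 0. Cenpf and Tpx2 in cold were -0.44 with at most 5% mitochondrial UMIs. Dbp in CL was 0.045 and Matn2 in CL 0.19 without barcodes with a Lcn2 or Saa3 UMI. The leave-one-out of a library was not possible. No paired analysis was possible because each group has 1 library. Depth limits the cold library most, with 492 stromal barcodes.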

Other observations

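The stromal barcodes of the CL library also differed in Acta2, one of the pericyte and smooth muscle markers summed above. Acta2, smooth muscle actin, had 10 UMIs in saline, 4 in cold and 269 in CL, or 1.48, 1.15 and 46.2 CPM. Rgs5, the pericyte marker, was 0 by the choice of barcodes. Ly6a (Sca-1), a surface marker of stromal progenitors that interferon is known to induce, stood at 1941, 1915 and 5692 CPM. Cxcl5, a neutrophil chemokine, had 4, 0 and 485 UMIs. Of 93 ribosomal protein genes, 12 were lower in cold and 3 higher in CL, against 5.93% and 12.9% of all tested genes. The ribosomal medians were -0.14 in cold and 0.10 in CL. These genes were named after their values were seen.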
